A study of Gallus gallus with 19 samples.

Results

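The genes described here are 7 genes known from the pluripotency network: NANOG, POU5F3 (PouV, the chicken relative of Oct4), KLF4, SALL4, LIN28A, LIN28B and PRDM14. They were chosen by name from the 24356 genes of the deposited count table, and all 7 passed the filter on low counts, which left 18996 genes. The data were 19 bulk RNA sequencing samples of the neural plate border (NPB) of wild type chicken embryos. At gastrula stage HH4, one side of each embryo was electroporated with a translation blocking morpholino (MO) and the opposite side with a control MO. Tissue was taken at HH7/HH8-. Every sample, controls included, therefore came from electroporated tissue that received an MO together with an empty carrier plasmid, and each sample pooled tissue of several embryos, a number for which the paper and the description of the deposit differ. The Nanog experiment gave 4 knockdown and 4 control samples, the PouV experiment 3 and 2, and the Klf4 experiment 4 and 2, which makes 8 controls in all. In 8 cases a control and a knockdown sample of one experiment had the same number. From the bilateral design, these pairs were taken to be the opposite sides of the same embryos (4 Nanog, 2 PouV and 2 Klf4 pairs).

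In embryonic stem cells, NANOG, Oct4 and KLF4 are transcription factors that bind many of the same regulatory regions and hold cells in an undifferentiated state. SALL4 is a zinc finger transcription factor that works with them, and PRDM14 is a PR domain protein known in mouse for its role in pluripotency and germ cell formation. LIN28A and LIN28B are RNA-binding proteins that block the maturation of let-7 microRNAs. The NPB is the strip of ectoderm between neural plate and future epidermis, from which neural crest cells arise. A translation blocking MO is an antisense oligomer that stops protein synthesis from its target mRNA without cutting it, so the amount of target mRNA is no measure of protein loss.

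The sequencing depth lay between 31215191 and 44726348 counts per sample (median 39160549). Levels are given as CPM, which are counts divided by the TMM-scaled library size, and are not corrected for gene length, so they are compared between samples and not between genes. The labels call the tissue midbrain and the cell type neural crest. The NPB and neural crest markers were detected in every sample, with median levels of 118 CPM for TFAP2A, 70.5 CPM for MSX1 and 15.0 CPM for PAX7. The samples also held markers of neighbouring tissues, such as SIX3 of the anterior neural plate at a median of 145 CPM, KRT7 at 696 CPM, the mesoderm marker FOXC2 at 137 CPM and APOA1, of the endoderm list, at 294 CPM. Other genes of the same lists were much lower. Their medians were 1.58 CPM for EN1 (neural plate), 4.63 CPM for TP63 (non-neural ectoderm) and 0.482 CPM for MSGN1 (mesoderm). TTR (endoderm) had a median of 2.11 CPM and TFAP2B (NPB and neural crest) one of 2.85 CPM. Of the 9 germ cell markers listed, 8 were tested, with medians from 0.640 CPM for TDRD5 to 17.9 CPM for PIWIL1, and the defining markers DAZL and DDX4 had medians of 1.42 and 0.751 CPM. In such bulk samples, fewer cells of a type and less RNA per cell cannot be told apart.

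All 7 genes were detected in all 19 samples. In the 8 controls NANOG (ENSGALG00000027772) was at 7.99 ± 3.51 CPM (SD, n = 8), with a lowest value of 3.59, a median of 6.92 and a highest value of 12.5. Its coefficient of variation of 43.9% was above that of 93.5% of the 13781 genes with a mean of at least 1 CPM, for which the median was 16.4%. PRDM14 (ENSGALG00000033439) was at 10.4 ± 2.90 CPM (SD, n = 8) and varied by 27.8%, from 7.74 to 14.9 CPM. KLF4 (ENSGALG00000026928) was at 6.72 ± 1.38 CPM (SD, n = 8), from 4.75 to 8.22. These 3 genes rested on between 146 and 542 reads per control sample.

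The other members were counted with more reads and varied less. POU5F3 (ENSGALG00000031482) was at 869 ± 141 CPM (SD, n = 8) in the controls, from 720 to 1155 with a median of 853. SALL4 (ENSGALG00000041365) was at 906 ± 121 CPM (SD, n = 8), from 669 to 1067 with a median of 932. LIN28A (ENSGALG00000036022) was at 644 ± 72.5 CPM (SD, n = 8), from 509 to 718 with a median of 659, and had the lowest coefficient of variation of the 7 genes in the controls, 11.3%. LIN28B (ENSGALG00000026761) was at 65.2 ± 10.5 CPM (SD, n = 8), from 45.2 to 73.5 with a median of 69.7.

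**Figure D1:**
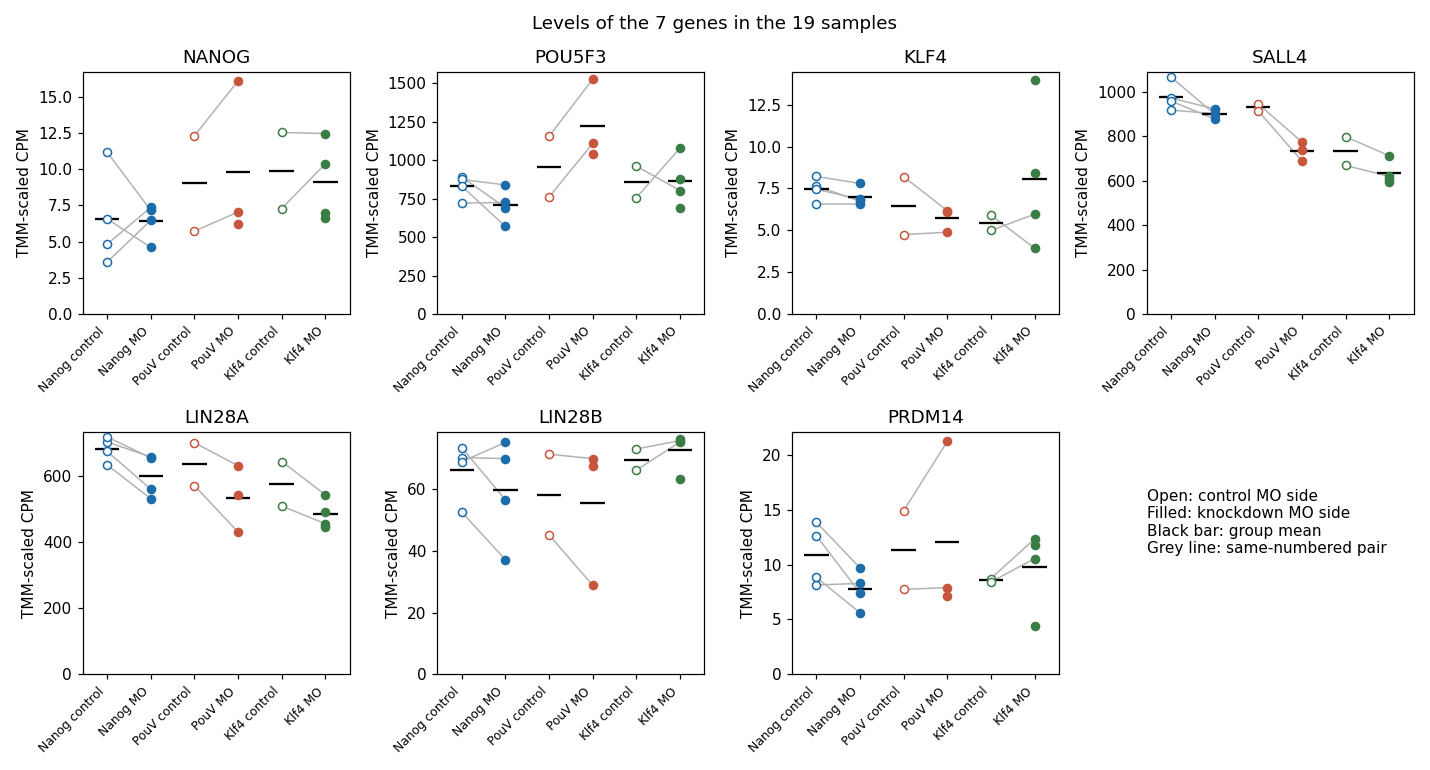
TMM-scaled CPM of the 7 genes (y axis, linear, a scale of its own in each panel) in the 19 samples by experiment and side. Open points are control MO samples, filled points knockdown samples, black bars group means and grey lines same-numbered pairs; the lines of SALL4 and LIN28A fall from control to MO side in 8 of 8 pairs.

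The controls of the 3 experiments were compared with an F test in edgeR, which called 1 of 18235 genes (0.00548% of those tested) and none of the 7 members. SALL4 had the smallest p of the 7. Its controls were at 918, 959, 973 and 1067 CPM in the Nanog experiment, at 915 and 946 in the PouV experiment and at 669 and 798 in the Klf4 experiment, and the Klf4 controls lay below all others. That difference had an unadjusted p of 0.0105 and an adjusted p of 0.306. In 27.5% of genes the Klf4 controls lay wholly above or wholly below the Nanog controls. The share for the Klf4 controls against all other controls, a stricter separation, was not taken. For the other members the adjusted p ran from 0.604 for LIN28A to 0.777 for LIN28B. Across the 8 controls, NANOG and POU5F3 had Pearson r = 0.53 (exact permutation p = 0.173) and Spearman rho = 0.45 (exact permutation p = 0.267). POU5F3 and KLF4 had r = 0.45 (exact permutation p = 0.268) and rho = 0.36 (exact permutation p = 0.389), and NANOG and KLF4 had r = -0.09 (exact permutation p = 0.815) and rho = -0.14 (exact permutation p = 0.752). After adjustment over these 3 relations p was 0.401, 0.401 and 0.815 for r and 0.584, 0.584 and 0.752 for rho, all two-sided. For each relation, r was also taken without the 2 samples farthest from the median of its first-named gene. It then became 0.76, 0.52 and 0.41, and the experiments held too few controls for values within them.

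Each knockdown was compared with all 8 controls, which the 3 comparisons share, in one edgeR model with 1 RUVs factor, an estimate of unwanted variation taken from the controls. No member passed the adjusted threshold of 0.05 in any knockdown. Of all genes tested, 0.258% were called after Nanog MO, 0.663% after PouV MO and 0.0158% (0.00526% lower) after Klf4 MO. Few genes of any kind were therefore called in this model. With the replicate block added to this model the PouV count went from 126 to 17 genes, and no member was called. At an unadjusted p under 0.05, POU5F3 was lower after Nanog MO, POU5F3 was higher and SALL4 and LIN28A were lower after PouV MO, and SALL4 and LIN28A were lower after Klf4 MO, beside 5.82%, 15.7% and 6% of all genes. With the replicate block in the model, the 3 PouV values stayed under that unadjusted p, the POU5F3 value after Nanog MO and both Klf4 values did not, and LIN28A after Nanog MO came under it (-0.21, unadjusted p = 0.0458). DESeq2 called SALL4 after PouV and Klf4 MO and no other member. Without the RUVs factor the Klf4 count went from 3 to 440 genes, and SALL4 and LIN28A were called after Klf4 MO. That factor ran from -1.94 to -0.29 in the Klf4 samples and from -0.66 to 1.47 in the others, so it partly followed the experiment. Every member overlapped the 8 controls in every knockdown, whereas 0.632% of genes after Nanog, 1.91% after PouV and 2.7% after Klf4 MO did not.

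The mRNAs of the targeted genes were taken first. NANOG was at 7.15, 6.47, 4.60 and 7.36 CPM in the Nanog MO samples 1 to 4 and at 11.2, 3.59, 6.57 and 4.82 CPM in the controls of the same numbers. The sides therefore overlapped, with NANOG lower on the MO side in 2 of 4 pairs and higher in 2. Against all controls the log2 fold change was -0.30 (SE 0.33, 95% interval -0.98 to 0.39, adjusted p = 0.997).

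POU5F3 was at 1526, 1109 and 1039 CPM in the PouV MO samples 1, 3 and 4 and at 1155 and 760 CPM in the PouV controls 1 and 3. Every PouV MO sample was above the control mean, but the control 1 sample lay above MO samples 3 and 4. Both pairs were higher on the MO side, by 0.40 and 0.54 on the log2 scale. Against all controls the log2 fold change was 0.50 (SE 0.15, 95% interval 0.19 to 0.82, adjusted p = 0.130), and it ran from 0.32 to 0.60 when single samples were left out.

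KLF4 was at 5.96, 14.0, 3.94 and 8.40 CPM in the Klf4 MO samples 1 to 4 and at 4.99 and 5.91 CPM in the Klf4 controls 1 and 3. These levels overlapped, and of the 2 pairs one was higher and one lower on the MO side. The log2 fold change against all controls was 0.34 (SE 0.28, 95% interval -0.25 to 0.94, adjusted p = 0.956). Without Klf4 MO sample 2, the highest of all 19, it was -0.08.

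No cross-effect among the targeted factors passed the adjusted threshold. POU5F3 after Nanog MO was at 691, 725, 839 and 569 CPM in samples 1 to 4, against 891, 720, 874 and 831 in the same-numbered controls. All of these MO values lay below the mean of the 8 controls, 3 of 4 pairs were lower on the MO side, and the groups overlapped. The log2 fold change was -0.31 (SE 0.14, 95% interval -0.61 to -0.012, adjusted p = 0.827). With the replicate block added beside the RUVs factor, this value was -0.049 (95% interval -0.39 to 0.29, adjusted p = 0.951). The log2 ratios of the 4 Nanog pairs themselves, without that factor, had a mean of -0.24 (SD 0.26). The factor differed between the sides, by -1.22 in Nanog pair 4, and its part in the smaller value was not tested. KLF4 after Nanog MO, at 6.57 to 7.80 CPM, had a log2 fold change of 0.05 (SE 0.24) against all controls, while it was lower on the MO side in 4 of 4 Nanog pairs, in one of them by less than a hundredth of a percent.

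NANOG after PouV MO was at 16.1, 7.04 and 6.20 CPM, with a log2 fold change of 0.28 (SE 0.35, 95% interval -0.46 to 1.01, adjusted p = 0.735). It was higher on the MO side in both PouV pairs, but without PouV MO sample 1 the value against all controls was -0.29. KLF4 after PouV MO was at 6.17, 4.89 and 6.12 CPM (log2 fold change -0.21, SE 0.27, adjusted p = 0.742). After Klf4 MO, NANOG ran from 6.65 to 12.5 CPM (0.06, SE 0.37) and POU5F3 from 687 to 1078 CPM (0.04, SE 0.16), and both overlapped the controls. The responses to 2 knockdowns were also tested against each other, each relative to the controls from that experiment. No member differed, and no other gene did either (edgeR, 0 of 18996 for each of 3 differences). At an unadjusted p under 0.05 there were 476 genes (2.51%) for Nanog minus PouV, 557 (2.93%) for Nanog minus Klf4 and 506 (2.66%) for PouV minus Klf4, and POU5F3 in the first of these was the only member. The response of POU5F3 to Nanog MO minus that to PouV MO was -0.59 on the log2 scale (95% interval -1.15 to -0.020, adjusted p = 1.00). The 5 highest NANOG values of the series were 16.1, 12.5, 12.5, 12.3 and 11.2 CPM, and all were in samples numbered 1. These were both sides of the PouV and Klf4 experiments and the control side of the Nanog experiment, while Nanog MO sample 1 was at 7.15 CPM.

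**Figure D2:**
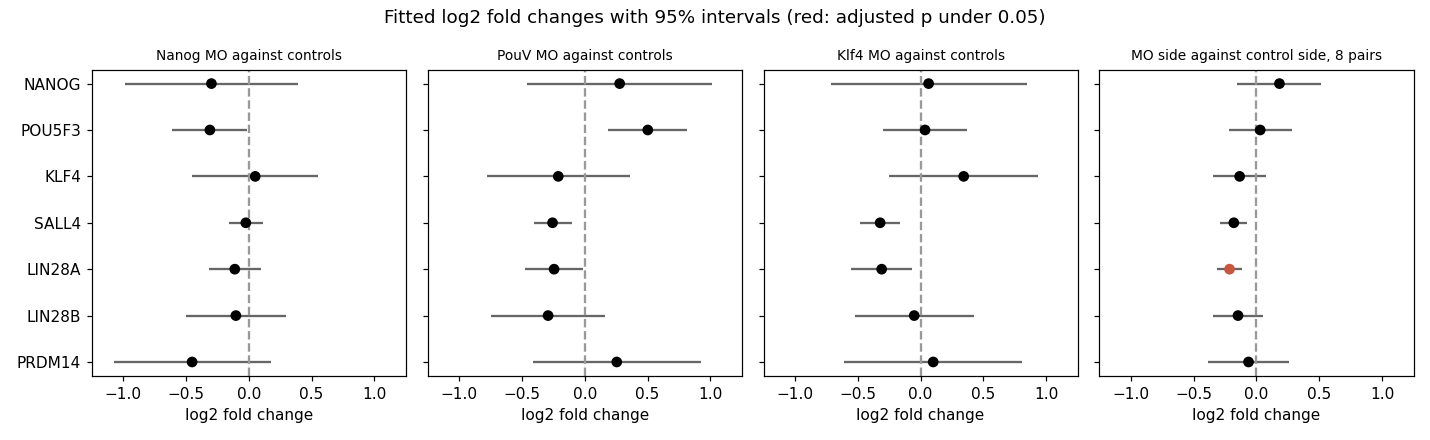
Fitted log2 fold changes (x axis, points) with 95% intervals (lines) of the 7 genes for each knockdown against the 8 shared controls and for the 8 pairs. One point, LIN28A in the pairs at -0.21, has an adjusted p under 0.05.

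SALL4 lay lower after PouV and Klf4 MO without passing the adjusted threshold. After PouV MO it was at 774, 689 and 738 CPM, all below its own controls at 946 and 915. With so few samples such a separation can readily arise by chance, and the share of all genes that showed it was not taken. The log2 fold change against all controls was -0.26 (SE 0.072, 95% interval -0.41 to -0.10, adjusted p = 0.112). Against the controls of the PouV experiment alone, without the RUVs factor, it was -0.34 (edgeR, adjusted p = 0.738). After Klf4 MO SALL4 was at 713, 610, 620 and 594 CPM, against 798 and 669 in its own controls, with which it overlapped. The log2 fold change against all controls was -0.32 (SE 0.076, 95% interval -0.48 to -0.16, adjusted p = 0.172), whereas against the controls of the Klf4 experiment alone it was -0.21 on the scale of the 6-group fit (adjusted p = 1.00). With the replicate block the Klf4 value was -0.15 (adjusted p = 0.883). After Nanog MO, at 878 to 924 CPM, the value was -0.02 (SE 0.064). Without Klf4 control sample 3, SALL4 was called after PouV MO (adjusted p = 0.0361) and after Klf4 MO (adjusted p = 0.00214), and without PouV MO sample 3 it was called after Klf4 MO (adjusted p = 0.0274).

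LIN28A had values of the same sign, which also missed the threshold. It was at 631, 430 and 542 CPM after PouV MO, against 700 and 571 in its own controls, a log2 fold change against all controls of -0.24 (SE 0.11, adjusted p = 0.295). That value was -0.37 without PouV MO sample 1 and -0.09 (adjusted p = 0.957) without PouV MO sample 3. After Klf4 MO it was at 543, 490, 456 and 446 CPM, against 644 and 509 in its own controls, a log2 fold change of -0.31 (SE 0.12, adjusted p = 0.655), which was called without Klf4 control sample 3 (-0.49, adjusted p = 0.0218) and was -0.18 (adjusted p = 0.875) with the replicate block. After Nanog MO it was at 657, 531, 560 and 655 CPM (-0.11, SE 0.10), and the groups overlapped in each experiment.

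LIN28B, the paralog of LIN28A, was not called either. Its lowest values were 28.9 CPM in PouV MO sample 3, 37.2 in Nanog MO sample 3, 45.2 in PouV control 3 and 52.6 in Nanog control 3, all samples numbered 3, while the Klf4 samples numbered 3 were at 75.3 and 66.2 CPM. The log2 fold changes were -0.10 (SE 0.19) after Nanog, -0.29 (SE 0.22) after PouV and -0.05 (SE 0.23) after Klf4 MO. Without PouV MO sample 3 the PouV value was 0.01.

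PRDM14 was at 9.70, 8.29, 7.43 and 5.61 CPM after Nanog MO, against 13.9, 8.15, 12.6 and 8.84 CPM in the same-numbered controls. It was lower on the MO side in 3 of these 4 pairs and higher in both PouV and both Klf4 pairs. Against all controls the log2 fold change was -0.45 (SE 0.30, adjusted p = 0.952) after Nanog, 0.26 (SE 0.32, adjusted p = 0.731) after PouV and 0.10 (SE 0.34, adjusted p = 0.986) after Klf4 MO. The PouV value rested on MO sample 1, at 21.3 CPM, and was -0.42 without it. The difference between the Nanog and Klf4 responses was -0.67 on the log2 scale (95% interval -1.85 to 0.51, adjusted p = 1.00).

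The pairs compare what were taken to be the sides of the same embryos, whichever factor was targeted. In them LIN28A fell by 0.21 on the log2 scale (SE 0.046, 95% interval -0.31 to -0.12, adjusted p = 0.0386, edgeR with the pairs as a block). It was the one member called, beside 1.52% of the 18857 genes tested (0.806% lower). At an unadjusted p under 0.05 stood LIN28A and SALL4, beside 15.3% of genes. The log2 ratios were -0.10, -0.25, -0.27 and -0.13 in Nanog pairs 1 to 4, -0.15 and -0.41 in PouV pairs 1 and 3, and -0.25 and -0.16 in Klf4 pairs 1 and 3. LIN28A was thus lower on the MO side in 8 of 8 pairs, as were 2.51% of all genes (1.73% were higher in 8 of 8), and swapping the sides within pairs gave an exact two-sided p of 0.0078125, the smallest that 256 arrangements allow. The call did not withstand small changes. It was lost when any one pair other than PouV 3 was left out (adjusted p from 0.0561 to 0.118; 0.0329 without PouV 3), with the RUVs factor in the fit (adjusted p = 0.0756) and without the pair term (adjusted p = 0.996), while DESeq2 gave an adjusted p of 0.000928.

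SALL4 was also lower on the MO side in 8 of 8 pairs (exact two-sided p = 0.0078125) and missed the adjusted threshold. Its log2 ratios were -0.07, -0.03, -0.24 and -0.13 in Nanog pairs 1 to 4, -0.29 and -0.41 in PouV pairs 1 and 3 and -0.16 and -0.11 in Klf4 pairs 1 and 3. The fitted log2 fold change was -0.18 (SE 0.049, 95% interval -0.29 to -0.073, adjusted p = 0.0956), and DESeq2 gave an adjusted p of 0.0295. The remaining members had ratios of both signs. The fitted values were 0.18 (SE 0.15) for NANOG, 0.03 (SE 0.12) for POU5F3, -0.13 (SE 0.099) for KLF4, -0.15 (SE 0.092) for LIN28B and -0.06 (SE 0.15) for PRDM14, with adjusted p from 0.479 to 0.932. With 4 pairs of the Nanog experiment an exact test cannot go below p = 0.125, and with the 2 of each other experiment not below 0.5, so no exact test of the pairs was made within experiments.

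**Figure D3:**
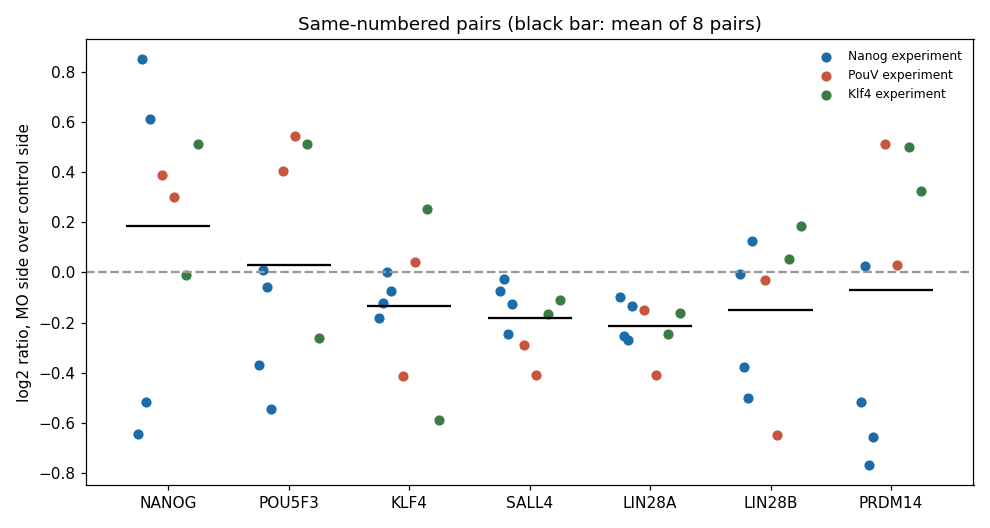
Log2 ratio of MO side over control side (y axis) for each gene in each of the 8 same-numbered pairs, coloured by experiment; black bars are means. LIN28A ratios run from -0.41 to -0.10 and SALL4 ratios from -0.41 to -0.03, while the other 5 genes have values on both sides of 0.

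Markers of other tissues also differed between the sides. The summed level of the 7 endoderm markers was higher on the MO side in 8 of 8 pairs (mean log2 ratio 0.61, from 0.04 to 1.55), and that of the 7 non-neural ectoderm markers in 7 of 8 (mean 0.55). The NPB and neural crest sum was lower in 6 of 8 pairs (mean -0.22) and the neural plate sum in 4 of 8 (mean -0.18). Tested one by one in the pairs, 4 of 12 NPB and neural crest markers and 4 of 8 neural plate markers were called lower. All 7 endoderm markers had values above 0, and 1 of them, APOA1, was called higher. Of the 7 non-neural ectoderm markers 5 were above 0 and 2 below, and none was called. These counts stand beside 0.806% of all genes called lower and 0.716% called higher. In the other lists 8 of 8 germ cell, 10 of 11 mesoderm and 3 of 3 blood markers were above 0, and 4 of 4 notochord markers were below. None of these was called, and the share of all genes above 0 was not taken. The germ cell and blood sums were each higher on the MO side in 6 of 8 pairs, the mesoderm sum in 5 and the notochord sum in 3. The sums weigh genes by level, and KRT7 and APOA1 had the highest medians of their lists (696 and 294 CPM). The endoderm sum ranged from 162 to 868 CPM in the controls, from 325 to 702 after Nanog, from 288 to 490 after PouV and from 553 to 1007 after Klf4 MO, and none of these endoderm markers was at 0 in any sample. The neural plate sum ranged from 281 to 1053 CPM in the controls and from 217 to 377 after Klf4 MO, the group with the lowest mean levels of SALL4 (634 CPM) and LIN28A (484 CPM). Both control ranges pool the experiments, and the sums of the Klf4 controls were not listed apart. Among the control groups, that of the Klf4 experiment also had the lowest mean levels of SALL4 (734 CPM) and LIN28A (576 CPM). The RUVs factor was lower on the MO side in 6 of 8 pairs (mean difference -0.16, SD 0.52, n = 8, in units of its SD over the samples). The part of these shifts in the values of LIN28A and SALL4 was not tested.

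Over the 19 samples the levels of LIN28A and SALL4 had Pearson r = 0.84 and Spearman rho = 0.88, a description only, since the points share embryos and experiments. SALL4 had r = 0.87 with the neural plate sum and -0.76 with the endoderm sum, and LIN28A had 0.70 and -0.74. The same correlations were taken over the differences between the sides. Over the log2 ratios of the 8 pairs, r with the neural plate sum was -0.50 for both genes, and r with the endoderm sum was 0.11 for SALL4 and 0.09 for LIN28A, again as a description. Other members had larger values over the pairs, picked here as the largest of many. They were -0.90 for PRDM14 with the endoderm sum, 0.84 for LIN28B with the germ cell sum and -0.80 for NANOG with the mesoderm sum. NANOG also had r = -0.77 with the blood sum over the 19 samples. Over the 19 samples PRDM14 had r = 0.70 with POU5F3 and 0.63 with NANOG, NANOG had 0.52 with POU5F3, and KLF4 had no r above 0.33 with another member. In the 8 controls alone KLF4 had r = 0.66 with LIN28A, 0.55 with PRDM14 and 0.54 with LIN28B, and -0.09 with NANOG. Between the sides of the 8 pairs, r was 0.92 for LIN28A and for LIN28B, 0.83 for SALL4, 0.65 for NANOG and for KLF4, 0.49 for PRDM14 and 0.41 for POU5F3, beside a median of 0.67 over 13781 genes. Spearman rho was 0.95 for LIN28A but only 0.43 for LIN28B. It was 0.79 for SALL4, 0.76 for KLF4, 0.69 for NANOG, 0.26 for PRDM14 and 0.17 for POU5F3.

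**Figure D4:**
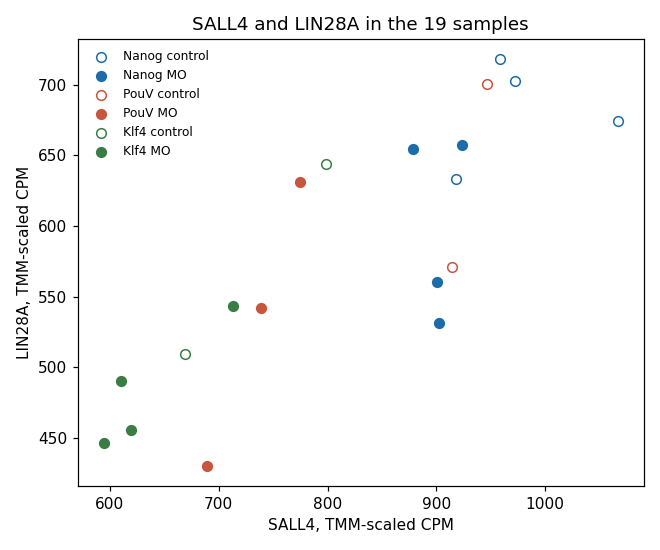
LIN28A level (y axis, TMM-scaled CPM) against SALL4 level (x axis, TMM-scaled CPM) in the 19 samples, open points for controls and filled points for knockdowns, coloured by experiment. The axes do not start at 0, and the Klf4 MO samples lie at the lower left, at 594 to 713 CPM of SALL4.

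Among 12153 named genes, those whose log2 levels followed a member most closely over the 19 samples were listed. For LIN28A they were ACLY, the enzyme that makes cytosolic acetyl-CoA (r = 0.96), ACSL6 (0.95) and ITPKA (0.95). For SALL4 they were TBC1D31 (0.94), HNRNPLL (0.94) and POLR3E (0.93), and for LIN28B PLEKHG1 (0.97), USP31 (0.96) and CAMSAP2 (0.96). The best matches were weaker for the other members, with NME1 at 0.86 for NANOG, TUB4A at 0.86 for POU5F3, the mitotic kinase MELK at 0.82 for KLF4 and TMCO6 at 0.80 for PRDM14. LIN28A ranked 168th by this measure for SALL4, and PRDM14 ranked 32nd for POU5F3.

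Of 42 further genes listed for the pluripotency network, 35 were tested. EPCAM, a surface adhesion protein of epithelial and stem cells, rose after Nanog MO (log2 fold change 0.57, SE 0.11, adjusted p = 0.0353) and PouV MO (0.78, SE 0.12, adjusted p = 0.00452), from 253 ± 42.4 CPM (SD, n = 8) to 375 ± 9.73 (SD, n = 4) and 435 ± 75.4 (SD, n = 3). After Klf4 MO its value was of similar size, 0.57 (SE 0.13), but missed the threshold (adjusted p = 0.172). Against the controls of the PouV experiment alone, without the RUVs factor, no gene was called after PouV MO, EPCAM included. EPCAM belongs to the genes that the study itself selected on these samples, so it is no independent evidence. No other gene of this list was called in a knockdown. In the pairs EPCAM rose by 0.70 (SE 0.068, adjusted p = 0.00109), KLF2, a relative of KLF4, rose by 0.72 (SE 0.12, adjusted p = 0.0139), and SOX2, a partner of Oct4 and a neural plate marker, fell by 0.42 (SE 0.083, adjusted p = 0.0270). KLF2 was at low levels, 2.62 ± 1.11 CPM in the controls and 4.34 ± 1.90 CPM on the MO side (SD, n = 8 for each). The list had a median log2 fold change of -0.05 for Nanog MO, -0.11 for PouV MO, -0.08 for Klf4 MO and -0.11 in the pairs, beside medians over all genes of 0.004, -0.001, -0.001 and 0.006. Values that missed the threshold included CDX2, a posterior and trophoblast factor. Its values were 1.32 (SE 0.59, adjusted p = 0.798) after Nanog, 1.28 (SE 0.64, adjusted p = 0.344) after PouV and 1.10 (SE 0.66, adjusted p = 0.911) after Klf4 MO. CDX2 was at only 2.76 ± 2.71 CPM in the controls (SD, n = 8). SOX2 also missed it after Klf4 MO, at -1.17 (SE 0.29, adjusted p = 0.213).

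The list for LIN28 and the let-7 pathway held 20 symbols, some of them alternative names of the same gene. It matched 16 tested genes, and none was called in any knockdown or in the pairs (edgeR). In each of the 4 comparisons 13 of the 16 had values below 0, with medians of -0.06 after Nanog, -0.15 after PouV and -0.10 after Klf4 MO and -0.09 in the pairs. The medians over all genes were 0.004, -0.001, -0.001 and 0.006, and the share of all genes below 0 was not taken. These are not separate results, since the 3 knockdowns share their controls and the pairs reuse those controls and part of the knockdown samples. MYCN, a growth promoting transcription factor, had -0.34 (SE 0.13, adjusted p = 0.713) after Nanog MO, and DGCR8, a microRNA processing protein, -0.37 (SE 0.17, adjusted p = 0.310) after PouV MO. IGF2BP1, an RNA-binding protein and let-7 target, had 0.23 (SE 0.072, adjusted p = 0.148) after PouV MO.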

How the data were processed

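Bulk RNA sequencing of 19 NPB samples (11 knockdown, 8 control MO) was analysed. Per the labels, the authors' processing used STAR 2.7.2a and GRCg6a, with DESeq2, edgeR and limma also named. The authors deposited raw counts per gene, a filtered table of counts and a table of TMM-scaled signal values, which equalled CPM recomputed from the raw counts (ratio 1 for every gene and sample). Gene names came from the deposited table for 12495 tested genes and from RefSeq by gene ID for 1831, KLF4 among them, and 4670 had none.

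A gene was kept where any sample held more than 5 of its reads. The 19 samples were fitted with edgeR 4.0.16 (R 4.3.3) in 4 groups with TMM normalization and 1 RUVs factor, written from its published algorithm with the controls as replicates and the 1000 genes of lowest coefficient of variation. The quasi-likelihood test was adjusted by Benjamini-Hochberg over all genes, with a threshold of 0.05 and 95% intervals. The 16 paired samples were fitted with the pair as a block and no RUVs factor, and the controls with an F test. Correlations used log2(CPM + 1). Alternatives used DESeq2 1.42.0 and limma 3.58.1. Alternatives also left out each sample or pair in turn.

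The fits were tested on simulated data. They recovered most of the changed genes, whose planted changes were larger than any value fitted for a member. Recovery of changes as small as those of the members was not tested. In the simulated run with an unwanted factor, which differed between the sides, the paired fit and the Nanog fit called more unchanged genes than the threshold allows, and far fewer in the run without that factor. The one call among the members, LIN28A, comes from the paired fit.

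The pairing was taken from the bilateral design and the replicate numbers. As a check, deviations of paired samples from their group means correlated at -0.0051 to 0.68 (median 0.59, 7 of 8 pairs over 0.1). The lowest value was that of Nanog pair 4.

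The members and lists were chosen with earlier results of these data known. Named genes were the members, genes of the network and LIN28 lists that were called or, where fewer than 4 were, had the 2 highest and 2 lowest values at a mean of at least 1 CPM, and the 3 closest genes per member; the text gives part of these.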

Additional observations from a re-analysis of the deposited data

Results flagged for a closer look

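LIN28B in Klf4 MO sample 4 was at 63.2 CPM, apart from the other 3 Klf4 MO samples at 75.3 to 76.2. Of the 28 groups examined in this way it was the one with such a sample, and chance alone gives such a sample in about 1 in 20 groups.

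The pairs of LIN28B went opposite ways in 2 experiments. Both PouV pairs were lower on the MO side, with a mean log2 ratio of -0.34, and both Klf4 pairs were higher, with a mean of 0.12. The PouV mean rested on pair 3 (-0.65), since pair 1 was at only -0.03. Klf4 pairs 1 and 3 were at 0.05 and 0.19. This contrast was chosen from the pairs and was not tested as such. The edgeR test of the PouV response minus the Klf4 response, each against its own controls, gave -0.13 (SE 0.43, adjusted p = 1.00).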

How the results depend on the processing

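SALL4 passed after PouV MO with DESeq2 (-0.25) and after Klf4 MO with DESeq2 (-0.32) or without the RUVs factor (-0.51), as did LIN28A after Klf4 MO without the RUVs factor (-0.41). In the pairs SALL4 passed with DESeq2 (-0.18), and LIN28A no longer passed with the RUVs factor (-0.22) or with no replicate block (-0.21). Adding the replicate block changed no member's call in the model with the RUVs factor. In the model without that factor it removed both Klf4 calls (SALL4 -0.14 and LIN28A -0.20, adjusted p = 1 for each). Values that changed sign were as follows. With the controls of the same experiment and no RUVs factor, KLF4 after Nanog MO was -0.095 and, after Klf4 MO, LIN28B was 0.060 and NANOG -0.12. With the replicate block, KLF4 was -0.11 after Nanog and -0.14 after Klf4 MO, LIN28B 0.27 and POU5F3 -0.060 after Klf4 MO. With that block but not the factor, KLF4 was -0.094 after Nanog and -0.16 after Klf4 MO, NANOG 0.060 after Nanog MO and LIN28B 0.12 after Klf4 MO. Without the RUVs factor alone, LIN28B was 0.16, POU5F3 -0.011 and PRDM14 -0.094 after Klf4 MO, and with it PRDM14 was 0.049 in the pairs. The correlation of NANOG and KLF4 in the controls was 0.41 without the 2 samples farthest from the NANOG median. The cause of these changes was not tested.

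After Nanog MO 49 genes were called, 26 without the RUVs factor, 113 with DESeq2 and 271 with the block but not the factor. After PouV MO 126 were called, 63 without the factor, 506 with DESeq2, 0 with the controls of the same experiment, 17 with the replicate block and 73 with the block and no factor. After Klf4 MO 3 were called, 440 without the factor, 77 with DESeq2, 15 with limma and 0 with the controls of the same experiment or with the block and no factor. In the pairs 287 were called, 795 with DESeq2, 137 with the RUVs factor and 17 with no replicate block. Among the controls 1 was called, 554 with DESeq2.

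Leaving out single samples gave 25 (without Nanog MO 1) to 60 genes after Nanog MO (27 without Nanog MO 2 or 3), 16 (without PouV MO 3) to 501 (without PouV MO 4) after PouV MO (216 without Klf4 control 3, 81 and 72 without Nanog controls 3 and 4), 0 to 753 (without Klf4 control 3) after Klf4 MO (62 and 8 without PouV MO 3 and 4) and 0 to 106 (without Nanog control 2) among the controls, and leaving out a pair gave 73 (without Nanog 1) to 275 (94, 92 and 157 without Nanog 2, 3 and 4, and 191 without PouV 1). The log2 values then ran, after Nanog MO, from -0.22 to 0.050 for LIN28B, -0.015 to 0.10 for KLF4 and -0.055 to 0.012 for SALL4. After PouV MO they ran from -0.52 to 0.0093 for LIN28B, -0.29 to 0.54 for NANOG, -0.42 to 0.52 for PRDM14 and -0.34 to -0.18 for SALL4. After Klf4 MO they ran from -0.13 to 0.041 for LIN28B, -0.077 to 0.52 for KLF4, -0.28 to 0.35 for NANOG, -0.13 to 0.12 for POU5F3, -0.15 to 0.34 for PRDM14, -0.49 to -0.27 for LIN28A and -0.52 to -0.30 for SALL4. In the pairs they ran from -0.046 to 0.11 for POU5F3, -0.14 to 0.038 for PRDM14 and -0.23 to -0.19 for LIN28A. For LIN28A after PouV MO they ran from -0.37 to -0.092.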
